A study of [Candida] boidinii with 12 samples.

Results

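Candida boidinii is a yeast that can use methanol as a carbon source. In methylotrophic yeasts methanol is oxidized to formaldehyde inside peroxisomes, and the transcripts of that pathway are known to be repressed by glucose and induced by methanol. A gene whose transcript is higher on methanol in a strain and lower on methanol in its derivative has opposite carbon responses in the 2 strains. Described here are 59 such genes, and whether any of them belongs to that pathway is not known.

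The 59 genes were selected on their read counts in all 12 libraries of the study, out of 5712 rows in each file. For each library the reads were scaled to CPM, reads per 1000000 reads of the count column, and 5034 rows other than LDH with a mean of at least 50 reads were kept. The methanol response of a strain was the log2 ratio of the mean CPM on methanol to that on glucose, with 1 CPM added to each mean, less the median of this ratio over the kept rows (0.02 in LA001-14 and -0.11 in wild type). Members had a response of -0.8 or below in LA001-14 and from 0.8 to below 4 in wild type. Both responses, their difference and the separation of methanol from glucose libraries within a strain were thus used for the choice and are given as descriptions, with no test.

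The groups were LA001-14 on methanol, LA001-14 on glucose, wild type on methanol and wild type on glucose, with 3 biological replicates each. Cells were sampled after 6 h in YPM with 2% (w/v) methanol or YPD with 2% (w/v) glucose. Wild type is strain CICC#33029. LA001-14 was made from it and carries a lactate dehydrogenase cassette (PENO1-BtL-LDH-TTEF2) and a kanamycin resistance cassette (PTDH3-KanR-TTEF2), both at random chromosomal loci. Effects of either cassette, of its site and of the making of the strain cannot be told apart in these groups. Total counts ranged from 8045977 to 14107813 per library. LDH had at least 16132 reads in each LA001-14 library and 1 read in the 6 wild-type libraries together. No gene names are paired with the identifiers in the files, so members are given by identifier and coding length, without function or position.

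Genes with these opposite responses were few. A response of -0.8 or below in LA001-14 was found in 729 kept rows and one of at least 0.8 in wild type in 831, and the 59 members were 8.09% of the first list and 7.10% of the second. They made up 1.17% of the kept rows. Another 5 rows met both limits but had wild-type responses of 4.10 to 6.25, above the upper limit of the rule, and their LA001-14 responses lay between -2.88 and -0.96. A rise of at least 0.8 in both strains was seen in 208 kept rows. The mirror image, with a response of at least 0.8 in LA001-14 and from above -4 to -0.8 in wild type, was shown by 40 rows.

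Among the 59 members the LA001-14 response ranged from -5.50 to -0.83 with a median of -1.21, and the wild-type response ranged from 0.82 to 3.12 with a median of 1.33 (centred log2). The response was -1 or below in LA001-14 for 43 members and at least 1 in wild type for 43, and 31 met both. The rise in wild type was larger than the fall in LA001-14 for 34 members and smaller for 25. Across the 59 members the 2 responses had Pearson's r = -0.28 and Spearman's rho = -0.16, and without the most extreme gene r was -0.08 over 58. The 2 responses share no library, but the thresholds cut the range of both.

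**Figure D1:**
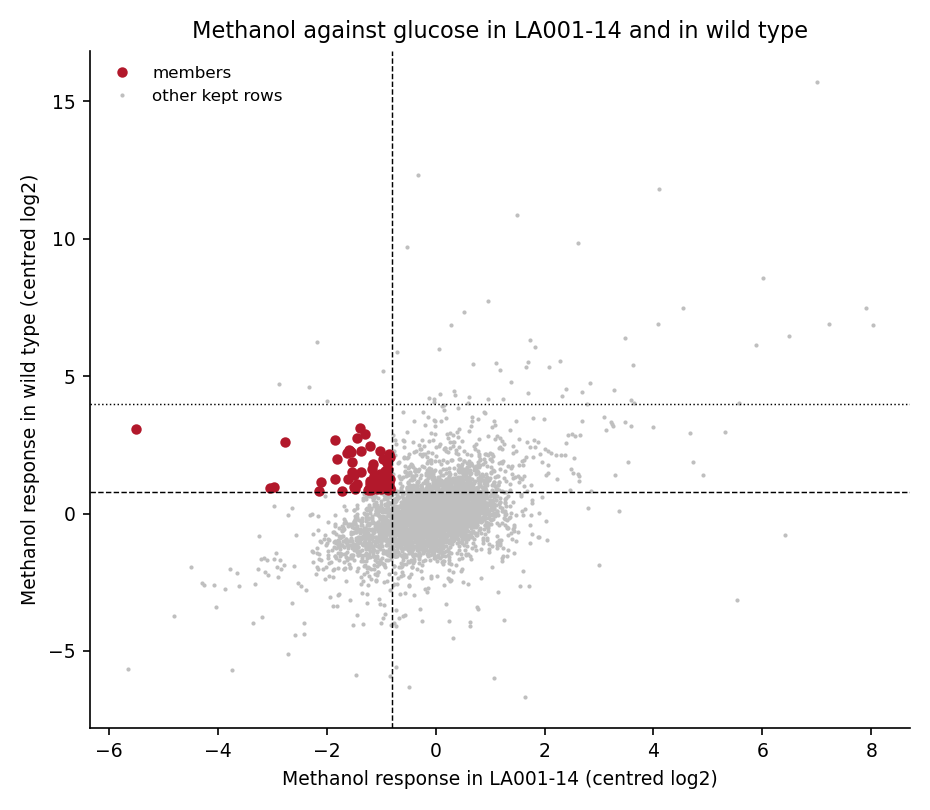
Methanol response in LA001-14 (horizontal) and in wild type (vertical), both as centred log2 ratios of methanol to glucose, for the 59 members (red) and the other kept rows (grey). Dashed lines mark -0.8 and 0.8 and the dotted line marks 4. Most members lie near the corner of the 2 thresholds, and 1 member stands apart at -5.50 and 3.08.

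At the edges of the rule the members closest to the limits differed little from the rows left out. The 2 members nearest the wild-type limit had responses of 0.82 and 0.83 there, and the 2 nearest rows outside had 0.76 and 0.75. At the LA001-14 limit the nearest members stood at -0.83 and -0.84 and the nearest rows outside at -0.79 and -0.78. The standard error of a response, from the spread of the replicates, had a median of 0.107 in LA001-14 and 0.117 in wild type over the members. Of the 59, 23 lay within 1 standard error of a limit, 15 of them within that distance in LA001-14 and 9 in wild type.

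Within each strain the libraries of the 2 carbon sources did not overlap for any member. In LA001-14 every methanol library lay below every glucose library in 59 of 59 members, beside 31.2% of kept rows. In wild type every methanol library lay above every glucose library in 59 of 59, beside 37.9% of kept rows. Both together held for 6.24% of kept rows. These counts follow from the choice and are not support for it.

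The rule was then repeated on part of the libraries, and the responses of the genes so chosen were read in the others. The rule was applied to 8 libraries with the libraries of 1 replicate number left out, and the responses were computed from the 4 libraries left out. Without replicate 1 the rule chose 58 genes, and all 58 were lower on methanol in LA001-14 and higher in wild type in the replicate 1 libraries, beside 17.7% of kept rows. The full rule was met again by 46 of the 58, beside 1.29% of kept rows. Without replicate 2 it chose 61 genes, all with the same directions in the libraries left out (18.4% of kept rows), and 48 met the full rule there (1.31%). Without replicate 3 it chose 65, again all with the same directions (19.2%), and 44 met the full rule (1.37%). The median responses in the libraries left out were -1.38, -1.17 and -1.21 in LA001-14 and 1.45, 1.48 and 1.27 in wild type. The libraries left out belong to the same strains and media, so they repeat the measurement and not the making of the strain.

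**Figure D2:**
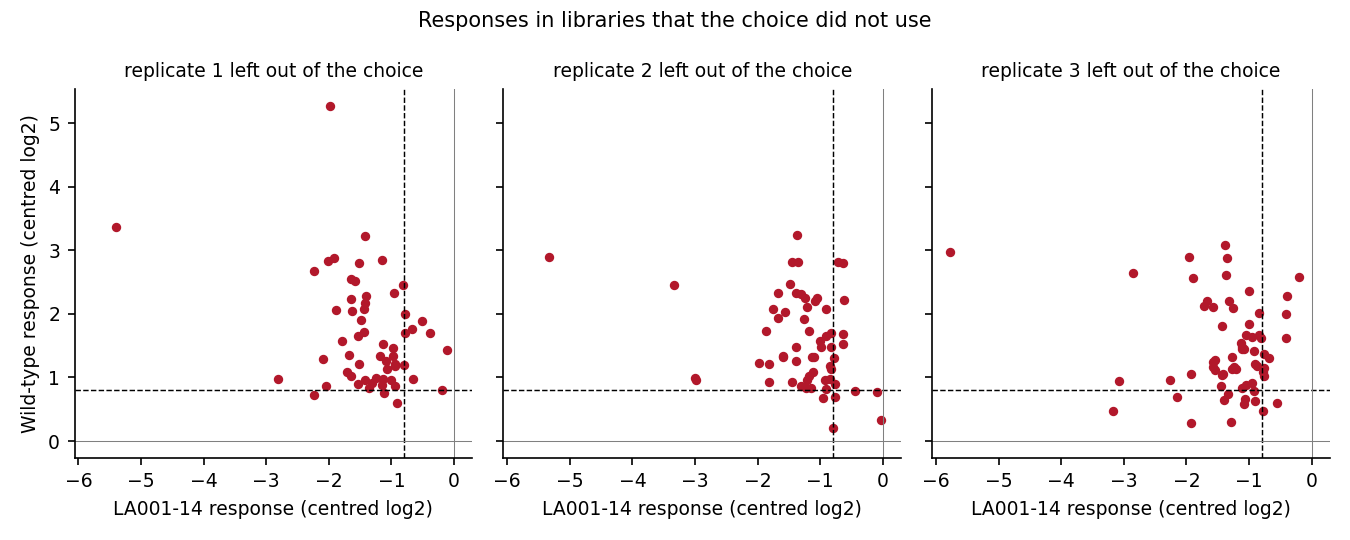
Responses in the 4 libraries of replicate 1, 2 or 3 for genes chosen on the other 8 libraries, LA001-14 on the horizontal axis and wild type on the vertical axis (centred log2). Each point is 1 gene, dashed lines mark -0.8 and 0.8, and all 58, 61 and 65 genes lie in the quadrant with a fall in LA001-14 and a rise in wild type.

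The 59 members together took close shares of all reads in LA001-14 on methanol and wild type on glucose, and larger shares in LA001-14 on glucose and wild type on methanol. Within each strain the direction of the share follows from the choice. In LA001-14 they held 0.865%, 0.841% and 0.848% of the reads in the methanol libraries and 1.96%, 1.92% and 1.95% in the glucose libraries. In wild type they held 2.68%, 2.68% and 2.66% in the methanol libraries and 0.900%, 0.870% and 0.875% in the glucose libraries. The means were 0.851% ± 0.012, 1.94% ± 0.020, 2.67% ± 0.0093 and 0.882% ± 0.016 for LA001-14 on methanol, LA001-14 on glucose, wild type on methanol and wild type on glucose (SD, n = 3 each). CB4678.t1 and CB2629.t1 held on average 23.9% and 22.4% of the members' reads. The other 57 took 0.449% ± 0.0033, 1.23% ± 0.012, 1.34% ± 0.018 and 0.431% ± 0.011 of all reads in the same order of groups.

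Levels per length were compared with the authors' FPKM, in which reads are scaled by coding length and by the library total. Averaged over the 12 libraries the members ranged from 2.75 to 8841 FPKM with a median of 50.9, beside a median of 39.4 over the kept rows, and 7 of the 59 (11.9%) lay above percentile 90 of the kept rows. Their median FPKM was 27.05 in LA001-14 on methanol, 68.5 in LA001-14 on glucose, 63.3 in wild type on methanol and 26.4 in wild type on glucose. Coding lengths ranged from 198 to 5646 bases with a median of 1335, beside 1467 over the kept rows. The spread within a group, as the pooled SD of log2 CPM, had a median of 0.143 over the members and 0.138 over the kept rows. A library with under 10 reads occurred in 2 members, and none had a library without reads.

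**Figure D3:**
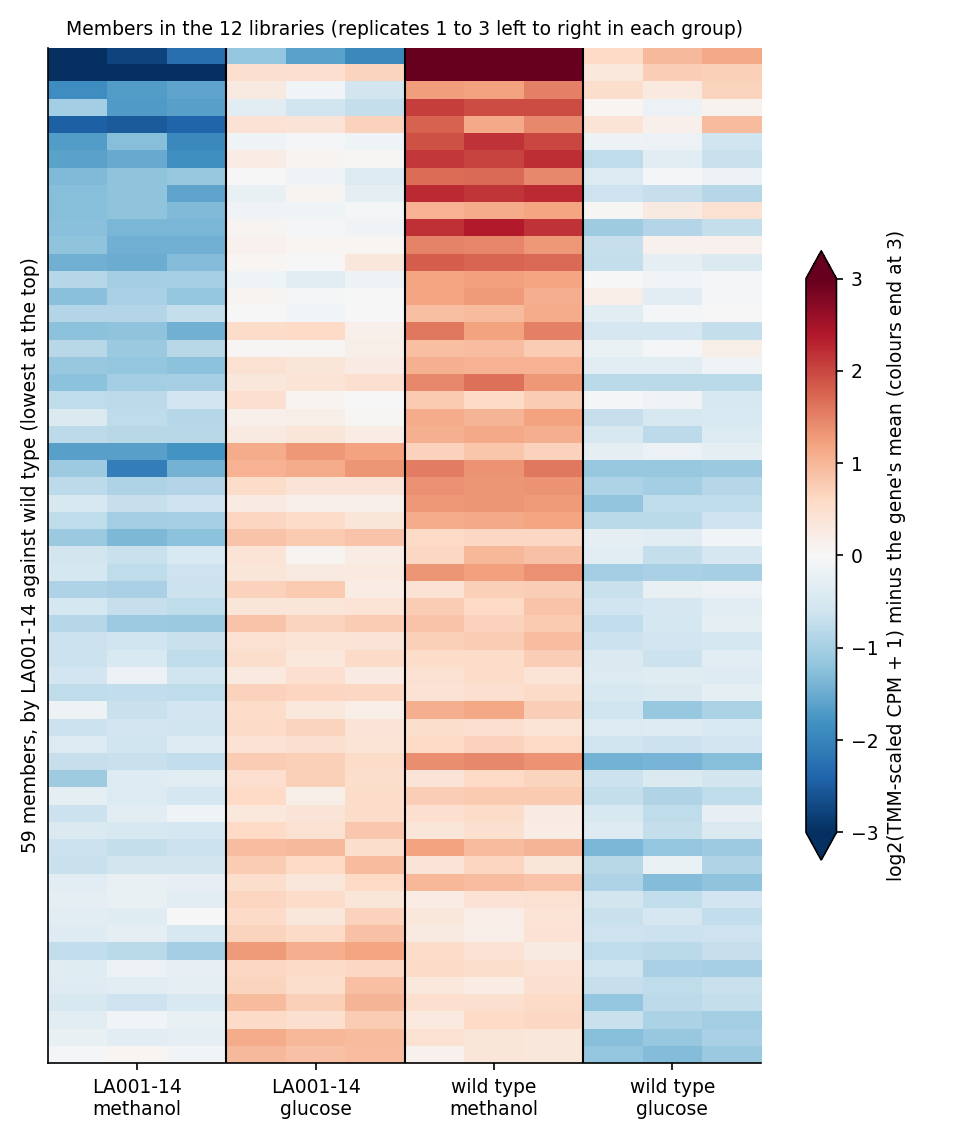
Levels of the 59 members (rows) in the 12 libraries (columns, 3 per group) as log2(TMM-scaled CPM + 1) minus the gene's mean over all libraries. Red is above and blue below that mean, and members are sorted from the lowest LA001-14 against wild-type difference at the top to the highest at the bottom. In most rows the 2 middle groups, LA001-14 on glucose and wild type on methanol, are the high ones. In 7 members the mean of LA001-14 on glucose lies below that of wild type on glucose. Wild type on methanol is the reddest in the upper rows.

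The group means of the members fell into 5 orders. The choice sets wild type on methanol above wild type on glucose and LA001-14 on glucose above LA001-14 on methanol. The highest group could thus only be wild type on methanol or LA001-14 on glucose. Likewise the lowest could only be LA001-14 on methanol or wild type on glucose. Levels were scaled by the trimmed mean of M values (TMM), which corrects library sizes for composition. Wild type on methanol was the highest group in 42 members and LA001-14 on glucose in 17, while LA001-14 on methanol was the lowest in 38 and wild type on glucose in 21. The most frequent order, in 25 members, ran from wild type on methanol through LA001-14 on glucose and wild type on glucose to LA001-14 on methanol. In 11 members LA001-14 on glucose came first, then wild type on methanol, LA001-14 on methanol and wild type on glucose. In 10 members the order was wild type on methanol, LA001-14 on glucose, LA001-14 on methanol, wild type on glucose. In 7 both wild-type groups lay above both LA001-14 groups, and in 6 LA001-14 on glucose came first and LA001-14 on methanol last. LA001-14 on glucose lay within 2-fold of wild type on methanol in 40 members (67.8%), beside 64.7% of kept rows, and LA001-14 on methanol within 2-fold of wild type on glucose in 46 (78.0%), beside 87.4%. Both held for 37 of the 59 (62.7%), near the 59.8% of kept rows. Scaled by library totals, LA001-14 on glucose was the highest group in 24 members and wild type on methanol in 35, and both wild-type groups lay above both LA001-14 groups in 4. The first crossed pair was then within 2-fold in 47 members (64.0% of kept rows) and the second in 46 (87.0%).

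All 59 members were lower in LA001-14 than in wild type on methanol, and most were higher in LA001-14 on glucose. The difference between these strain differences equals the difference between the methanol responses, so they too are described without a test on the members. On methanol LA001-14 was below wild type in all 59 members, with a median log2 difference of -1.81 beside 0.005 over all 5466 genes tested. It was at least 2-fold lower in 49 of 59, beside 11.5% of genes tested, and at least 2-fold higher in 0, beside 10.3%. No library of LA001-14 on methanol reached the wild-type methanol libraries in any of the 59 (37.0% of kept rows), and the reverse held for 0 (36.3%). Scaled by library totals the methanol libraries were separate in this direction in 57 members, beside 24.0% of kept rows. On glucose LA001-14 was above wild type in 52 of 59, with a median log2 difference of 1.06 beside 0.01 over the genes tested. It was at least 2-fold higher in 31, beside 7.98%, and at least 2-fold lower in 1, beside 8.91%. All glucose libraries of LA001-14 lay above those of wild type in 47 members (33.2% of kept rows) and below them in 5 (32.6%), and with library totals in 50 (44.3%) and 1 (22.0%). At least 2-fold higher on glucose and at least 2-fold lower on methanol were 22 members, beside 1.35% of genes tested. Only 1 member was under 2-fold different on both carbon sources, beside 68.0%. Through the rule the LA001-14 response minus that of wild type was -1.72 or below in every member, with a median of -2.75. The counts over both carbon sources together thus follow largely from the choice and are not support for it. The strain difference was larger on methanol than on glucose in 43 members and larger on glucose in 16.

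**Figure D4:**
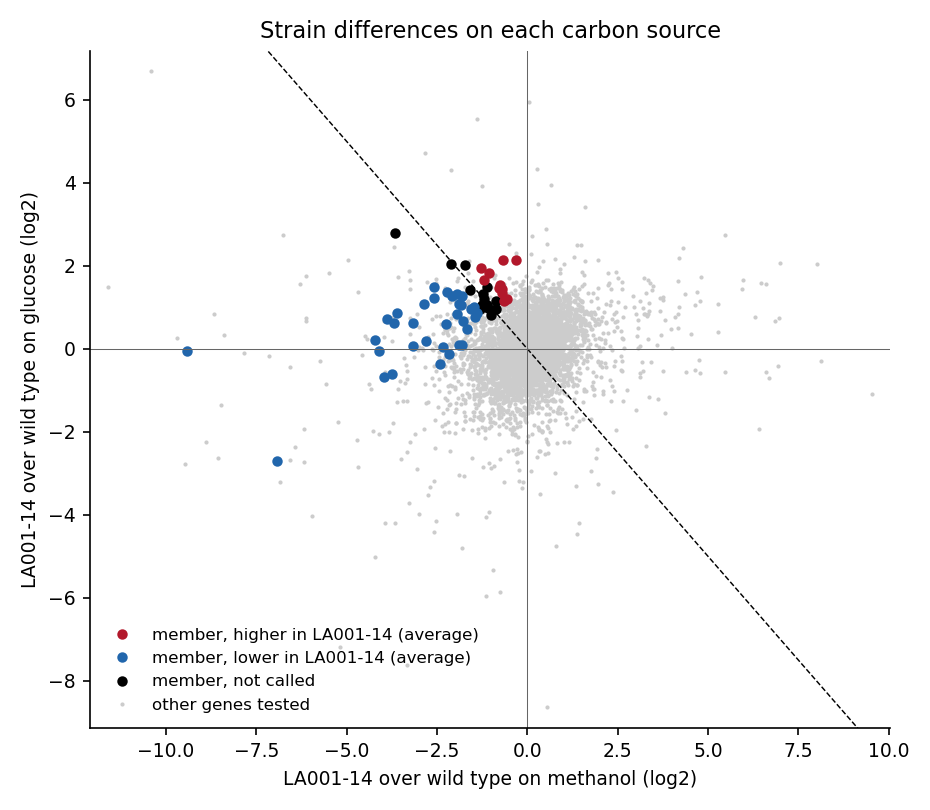
Log2 ratio of LA001-14 to wild type on methanol (horizontal) and on glucose (vertical) for the 59 members (coloured by the test of the strain difference averaged over both carbon sources) and the other genes tested (grey, without LDH). On the dashed line the 2 differences cancel, members called higher on average lie above it and members called lower lie below it. All 59 members lie left of 0 on the horizontal axis.

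The strain difference averaged over the 2 carbon sources is orthogonal to both methanol responses, and it was tested with edgeR's quasi-likelihood test over all 5466 genes. Calls were made below a p of 0.05 after Benjamini-Hochberg adjustment over these genes. In most members it averages differences of opposite sign, since LA001-14 was above wild type on glucose in 52 and on methanol in 0. A call thus gives the side of the average and not the direction on each carbon source. On this average 34 of the 59 members were lower in LA001-14 (57.6%), beside 34.5% of all genes tested. Higher on average were 11 (18.6%), beside 33.5%. In all 45 were called (76.3%), beside 68.1%, and 14 were not. Called and at least 2-fold lower were 15 members, beside 6.97%, and called and at least 2-fold higher were 0, beside 5.85%. The median log2 difference was -0.34 over the members and -0.01 over the genes tested. Scaled by library totals, 27 members were called lower, beside 20.7% of all genes tested, and 19 higher, beside 50.6%, and the medians were -0.10 over the members and 0.24 over the genes tested. The 40 rows of the mirror image lay on the same side, with 24 called lower, 12 called higher and a median of -0.31.

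The direction of this average went with the order of the groups. All 7 members with both wild-type groups on top were called lower, with a median log2 difference of -2.17. Of the 25 members in the most frequent order 22 were called lower and 0 higher, with a median of -0.68. Of the 11 members with LA001-14 on glucose first and wild type on glucose last 9 were called higher and 0 lower, with a median of 0.34. The orders were formed on the same libraries as the average, so these counts are a description. Called members that were lower ranged from -4.81 to -0.23 and those that were higher from 0.23 to 0.92.

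CB0353.t1, with a coding length of 198 bases, had the largest opposition of responses, -5.50 in LA001-14 and 3.08 in wild type. It stood at 1.10, 1.29 and 0.889 CPM (TMM-scaled, as are all CPM below) in LA001-14 on methanol and at 81.9, 83.6 and 93.3 CPM in LA001-14 on glucose. The wild-type values were 776, 750 and 778 CPM on methanol and 73.3, 98.8 and 97.3 CPM on glucose. The glucose libraries of the strains overlapped and all other pairs of groups were separate. On methanol the mean of wild type was 703-fold that of LA001-14. The LA001-14 methanol values rest on 16, 13 and 8 reads. By FPKM the gene ranked between 31 and 34 in the wild-type methanol libraries and between 4648 and 4853 in those of LA001-14. Averaged over the carbon sources its log2 difference was -4.74 (SE 0.10, edgeR adjusted p = 6.03e-22).

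**Figure D5:**
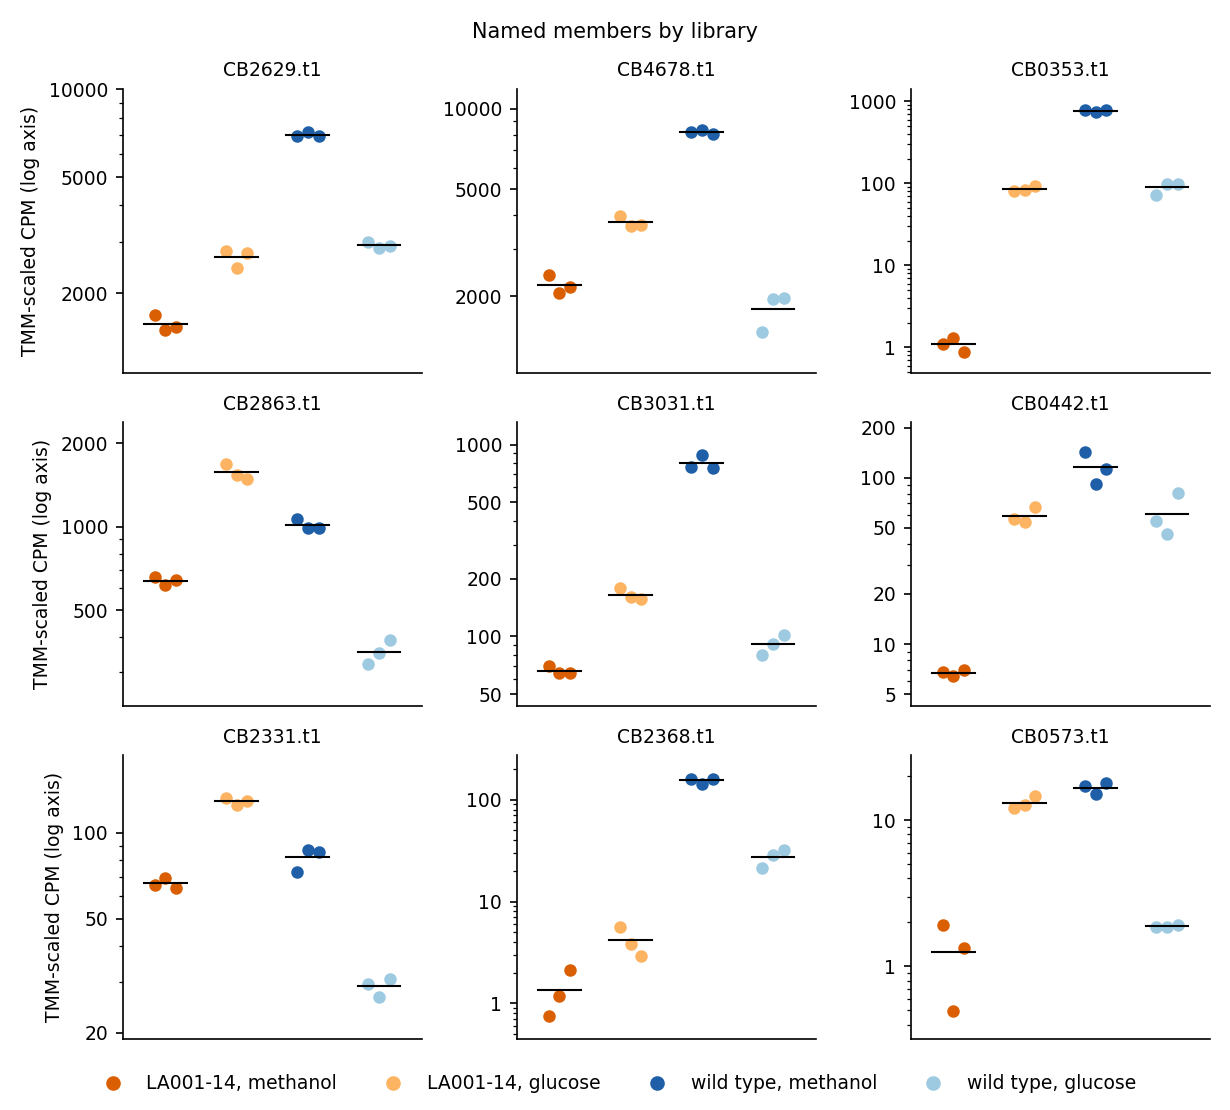
TMM-scaled CPM (log axis, its own range in each panel) of the 9 named members in each library, with points for replicates 1 to 3 and a bar for the group mean. Groups run from left to right as LA001-14 on methanol, LA001-14 on glucose, wild type on methanol and wild type on glucose. On glucose the libraries of both strains overlap for CB0353.t1 and CB0442.t1, and CB2863.t1 and CB2331.t1 are highest in LA001-14 on glucose.

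CB0442.t1 (798 bases) was also alike in the strains on glucose and had the second lowest LA001-14 response, -3.05, with a wild-type response of 0.91. It had 6.75, 6.43 and 7.00 CPM in LA001-14 on methanol and 56.3, 54.2 and 66.8 CPM on glucose. Wild type had 142, 91.7 and 113 CPM on methanol and 55.2, 46.0 and 81.3 CPM on glucose. The lowest methanol library of wild type was thus only a little above its highest glucose library, whereas LA001-14 showed an 8.79-fold lower mean on methanol. Its averaged strain difference was -2.07 (SE 0.16, edgeR adjusted p = 7.75e-10). The rank of its LA001-14 response depends on the 1 CPM added to each mean. In the means without it, CB0573.t1 fell further, 10.5-fold. The wild-type response of CB0442.t1 was not steady across libraries. It was 0.97 in the replicate 2 libraries alone and 0.47, below the limit of 0.8, in those of replicate 3. Its fitted value ranged from 0.76 to 1.19 when single libraries were left out.

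CB2629.t1 (384 bases) was the most abundant member, with a mean of 8841 FPKM over the 12 libraries. It had 1686, 1495 and 1524 CPM in LA001-14 on methanol and 2778, 2443 and 2739 CPM on glucose. The corresponding wild-type levels were 6945, 7135 and 6923 CPM on methanol and 2991, 2865 and 2897 CPM on glucose. On glucose the mean of LA001-14 was 0.910-fold that of wild type, and every LA001-14 glucose library lay just below those of wild type. By FPKM, which is scaled by library totals, this direction turned: the glucose libraries had 7747, 7140 and 8196 FPKM in LA001-14 and 8052, 7005 and 6812 FPKM in wild type, with overlap and means of 7694 and 7290 FPKM. By FPKM it ranked 5 or 6 in the wild-type methanol libraries and 30 to 33 in those of LA001-14. Its averaged strain difference was -1.15 (SE 0.041, edgeR adjusted p = 1.76e-14).

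CB4678.t1 (855 bases) was the other highly abundant member, at 4521 FPKM on average, and its strains differed on both carbon sources in opposite directions. It had 2394, 2051 and 2172 CPM in LA001-14 on methanol and 3966, 3663 and 3696 CPM on glucose. The wild-type values were 8192, 8337 and 8036 CPM on methanol and 1470, 1953 and 1968 CPM on glucose. LA001-14 was thus 2.10-fold higher on glucose, while on methanol the wild-type mean was 3.71-fold that of LA001-14. The averaged difference was -0.41 (SE 0.079, edgeR adjusted p = 1.23e-05).

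CB3031.t1 (1266 bases) had the largest wild-type response, 3.12, and a response of -1.39 in LA001-14. It had 69.6, 64.3 and 64.1 CPM in LA001-14 on methanol and 178, 161 and 156 CPM on glucose. Wild type had 765, 883 and 751 CPM on methanol and 79.8, 91.3 and 101 CPM on glucose. The 4 groups did not overlap, with LA001-14 1.82-fold higher on glucose and the wild-type mean 12.1-fold that of LA001-14 on methanol. The averaged difference was -1.37 (SE 0.071, edgeR adjusted p = 5.33e-15). Without the 1 CPM added to each mean, the wild-type rise was 8.81-fold for CB3031.t1 and 8.88-fold for CB0573.t1.

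CB0573.t1 (1041 bases) had the second largest opposition of responses after CB0353.t1, -2.77 in LA001-14 and 2.59 in wild type. It had 1.93, 0.494 and 1.33 CPM in LA001-14 on methanol and 12.0, 12.7 and 14.6 CPM on glucose. The corresponding wild-type levels were 17.1, 15.02 and 17.8 CPM on methanol and 1.85, 1.86 and 1.92 CPM on glucose. The low groups overlapped each other, and the lowest wild-type methanol library lay just above the highest LA001-14 glucose library, whereas scaled by library totals, as in the FPKM, these high groups overlapped too. The LA001-14 methanol values rest on 28, 5 and 12 reads. Its averaged difference of -0.43 (SE 0.25) did not pass the test (edgeR adjusted p = 0.082). Without LA001-14 on methanol replicate 1 it was -0.70 and passed, with an edgeR adjusted p of 0.0113, and over 18 alternative settings the adjusted p ranged from 0.0113 to 0.45.

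CB2368.t1 (930 bases) was lower in LA001-14 on both carbon sources and had the lowest averaged difference, -4.81 (SE 0.24, edgeR adjusted p = 9.39e-17). It had 0.758, 1.19 and 2.11 CPM in LA001-14 on methanol and 5.69, 3.87 and 2.92 CPM on glucose. The wild-type values were 161, 141 and 161 CPM on methanol and 21.5, 28.5 and 31.9 CPM on glucose. The wild-type means were 114-fold those of LA001-14 on methanol and 6.56-fold on glucose. It was the 1 member at least 2-fold lower on glucose. Its fall on methanol in LA001-14 rests on 11, 12 and 19 reads on methanol and 53, 45 and 27 reads on glucose.

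CB2331.t1 (1461 bases) and CB2863.t1 (1194 bases) had the highest averaged differences, 0.92 (SE 0.055, edgeR adjusted p = 1.82e-11) and 0.74 (SE 0.055, edgeR adjusted p = 4.36e-11). CB2331.t1 had 65.9, 69.6 and 63.9 CPM in LA001-14 on methanol and 132, 125 and 129 CPM on glucose. Wild type had 73.1, 87.2 and 85.7 CPM on methanol and 29.6, 26.7 and 30.7 CPM on glucose. On methanol its strains were close but separate, the wild-type mean being 1.23-fold that of LA001-14, and on glucose LA001-14 was 4.44-fold higher. By FPKM its methanol libraries overlapped between the strains, with means of 48.6 FPKM in LA001-14 and 49.3 FPKM in wild type. CB2863.t1 had 658, 615 and 645 CPM in LA001-14 on methanol and 1686, 1539 and 1488 CPM on glucose. The corresponding wild-type levels were 1066, 992 and 986 CPM on methanol and 319, 350 and 392 CPM on glucose. It too differed mainly on glucose, where LA001-14 was 4.44-fold higher, while on methanol the wild-type mean was 1.59-fold that of LA001-14.

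The members were spread over the numbering of the identifiers, from 110 to 5600. Whether this numbering follows the chromosomes is not stated in the labels or file headers. In all, 9 of the 59 had another member within 5 numbers and 2 of them had consecutive numbers. In the mirror image 4 of the 40 rows had another of them within 5 numbers. The 95 kept rows numbered next to a member and not members themselves had a median response of 0.02 in LA001-14 and 0.14 in wild type. A response of -0.8 or below in LA001-14 was seen in 7 of the 95 (7.37%), beside 14.5% of kept rows, and one of at least 0.8 in wild type in 21 (22.1%), beside 16.5%.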

How the data were processed

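The 12 RNA-seq libraries of C. boidinii were analysed. Each deposited file holds 1 library with raw read counts and FPKM values per coding sequence for 5712 rows, per the file headers. The FPKM values made by the authors equal the count scaled by coding length and column sum to within 2.40e-06 percent. The submitters' processing notes name Bowtie2 2.5.4. How reads were counted, on which build and annotation and whether by strand, is not given in the sources used here, so overlapping, antisense and near-identical genes cannot be told apart. Replicates are called biological in the labels without mention of separate cultures, so p-values cover only the spread among the 12 libraries, which may be technical. Replicate pairs differed by more than counting noise (chi-square per degree of freedom 4.03 to 32.3), wild type on glucose replicate 1 most.

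Counts were analysed across all genes with edgeR 4.0.16 in R 4.3.3: filterByExpr on the 4 groups (5466 genes, all 59 members), TMM scaling, 1 mean per group, robust quasi-likelihood fit. Its common biological coefficient of variation was 0.0938. Standard errors come from log2 CPM with 2 reads added. The test was tried on simulated data. DESeq2 1.42.0, other scalings and filters, a replicate block and leaving out each library were the alternatives. Members, lists and tests were chosen with earlier results of these data known. Named are the 2 members with the highest wild-type response, the 2 with the lowest LA001-14 response, the 2 with the largest difference of responses, the 2 with the highest FPKM, and the 2 called members with the highest and the 2 with the lowest averaged strain difference.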

Additional observations from a re-analysis of the deposited data

Results flagged for a closer look

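The methanol responses of the strains were opposite, library by library, in all 59 members: every methanol library of LA001-14 lay below every glucose library of LA001-14, and every methanol library of wild type lay above every glucose library of wild type. The members were chosen for this, and the difference was not tested. For the 9 named members the centred log2 response in LA001-14 minus that in wild type was -8.58 (CB0353.t1), -5.36 (CB0573.t1), -4.50 (CB3031.t1), -3.96 (CB0442.t1), -3.66 (CB2368.t1), -3.04 (CB4678.t1), -2.88 (CB2863.t1), -2.48 (CB2331.t1) and -2.08 (CB2629.t1).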

How the results depend on the processing

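The number of members depended mainly on the threshold: at 1 in place of 0.8 the rule gave 31, all of them among the 59. Of these 31, 25 were called in the averaged strain difference, beside 68.1% of all genes tested. Called higher were 5, beside 33.5%, and called lower were 20, beside 34.5%. It gave the same 59 with TMM or RLE sizes, but centring removes most of a change of scaling, so this is no check of it. The rule gave 50 members without centring (49 shared), 47 with 5 CPM added and 62 with 0.1 CPM added. With a minimum mean of 10, 200 and 1 reads it gave 61, 51 and 58. Without libraries it gave 55 to 65, and 45 members were kept without each of the 12 libraries in turn. Without single libraries 44 to 46 members were called, beside 65.1% to 69.8% of all genes tested. Called higher were 11 or 12, beside 32.0% to 36.9%, and called lower were 33 or 34, beside 32.9% to 34.6%. Library totals gave 19 higher and 27 lower (50.6% and 20.7% of all genes tested), with the median of all genes at 0.24, and the median of the members lay 0.34 below that of all genes with either scaling. RLE, the upper quartile and DESeq2 each gave 12 higher and 34 lower. Beside these, 35.5%, 34.3% and 35.9% of all genes tested were higher and 32.9%, 33.6% and 33.1% lower. With library totals 39 members were at least 2-fold higher on glucose and 39 at least 2-fold lower on methanol (13.0% and 8.07% of all genes tested), and LA001-14 was below wild type on methanol in all 59 with each scaling. These 2-fold counts and medians, and the group orders and separations under library totals, were added after the data were seen. By the authors' FPKM the members' shares were 1.04%, 2.19%, 4.02% and 1.23% in LA001-14 on methanol, LA001-14 on glucose, wild type on methanol and wild type on glucose, since FPKM weights reads by coding length. Deviations of same-numbered libraries had correlations from -0.33 to 0.16, over 0.1 in 1 of 18 pairs. No pairing by number was seen, but with 3 replicates per group these correlations cannot exclude that libraries were handled together. The replicate block gave 11 higher and 34 lower (33.1% and 34.0% of all genes tested). Of 162 values of the averaged difference in named members, 161 kept their direction and side of the threshold, the exception being CB0573.t1 above. Members under 10 reads in a library are limited by depth.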
